A study of Drosophila melanogaster with 8 samples.

Results

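The fly fat body stores nutrients, secretes blood proteins and makes lipoproteins, and a layer of it lines the inside of the adult head. The 8 genes described here are head fat body transcripts other than the storage hexamerins: the yolk protein genes Yp1, Yp2 and Yp3, the takeout gene (to), the transferrin gene Tsf1, the lipoprotein genes Rfabg and CG15828, and the lipase gene Lip4. They were chosen by gene symbol, and all 8 were found among the 15240 genes of the deposited table. The RNA came from Drosophila melanogaster adults that were 6 days old and socially naive, with about 90 whole heads pooled per sample. The 4 groups were Canton-S flies (CantonS) raised at 19C, CantonS raised at 25C, flies of the hyper-aggressive Bully line of Canton-S background raised at 19C, and Bully raised at 25C. Each group had 2 libraries, named a and b here in column order. The labels do not give the sex of the flies. Values are RPKM, read counts scaled by gene length and library size, so that levels of different genes can be compared per length.

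Yolk proteins are the precursors of egg yolk. In females they are made by the fat body and by ovarian follicle cells and are taken up by the oocyte through the receptor yolkless (yl). Their transcription in the fat body is set by the sex determination factor doublesex (dsx), and males make little of them. They are related in sequence to neutral lipases. Takeout is a secreted protein of a family related to juvenile hormone binding proteins, known for its response to the clock and to starvation and for its role in male courtship. Transferrin 1 carries iron in the hemolymph. Rfabg (apolpp in the current annotation) encodes the structural protein of lipophorin, the main lipid carrier of fly blood, and CG15828 (Apoltp) that of the lipid transfer particle, which loads lipophorin with lipid. Lip4 belongs to the acid lipase family. Yp1, Yp2, Yp3 and Tsf1 lie on chromosome X, to on 3R, CG15828 and Lip4 on 2L, and Rfabg on chromosome 4. Yp1 and Yp2 are next to each other on opposite strands.

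Effective library sizes, recovered from the steps between RPKM values, lay between 47.6 M reads (M, mega) in CantonS 25C a and 117.8 M in CantonS 19C b. The tissue was checked by 12 other fat body markers. Of these ppl, Lsd-1 and Pepck, genes of fat body metabolism and lipid storage, were at 24.1 to 37.6, 25.4 to 56.9 and 80.7 to 272 RPKM. Lsp2 was at 52.4 to 398, tobi at 14.8 to 53.4 and AkhR at 8.51 to 14.3 RPKM. Lower were Ilp6 (4.72 to 6.85 RPKM), Lsp1beta (1.56 to 38.5 RPKM) and Lsp1alpha (0.111 to 1.80 RPKM). The larval gene Fbp1 was at or under 0.08 RPKM, Fbp2 at or under 0.102 RPKM and Lsp1gamma at or under 0.119 RPKM. The male-specific RNA roX1 was at 121 RPKM or more in every library. All 14 ovary follicle genes stayed below 1 RPKM in every library (highest Cp7Fa, 0.452 RPKM; summed level 0.542 to 1.34 RPKM), and yl was at 0.012 RPKM or less. CantonS 19C b stood apart in its relation to gene length: its 443 tested genes of at least 8000 bases lay 0.47 below their mean over the libraries (median, log2 scale) and its 1314 genes under 1000 bases lay 0.42 above. In the other 7 libraries these medians lay between 0.01 and 0.21 for long genes and between -0.22 and 0.11 for short genes.

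The 8 genes differed widely in level. Averaged over the 8 libraries, Tsf1 was at 463 RPKM, above 99.7% of all genes in the table, Rfabg at 190 RPKM and to at 114 RPKM. Lip4 (19.0 RPKM), Yp3 (12.4 RPKM) and CG15828 (10.96 RPKM) were higher than 83.6% to 90.1% of genes. Yp1, at 1.69 RPKM, and Yp2, at 0.597 RPKM, were near the middle of the table. Between its lowest and highest library Yp1 varied 4.37-fold, Yp2 3.71-fold and to 3.60-fold, against 1.53-fold for Rfabg and 1.61-fold for Lip4.

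**Figure D1:**
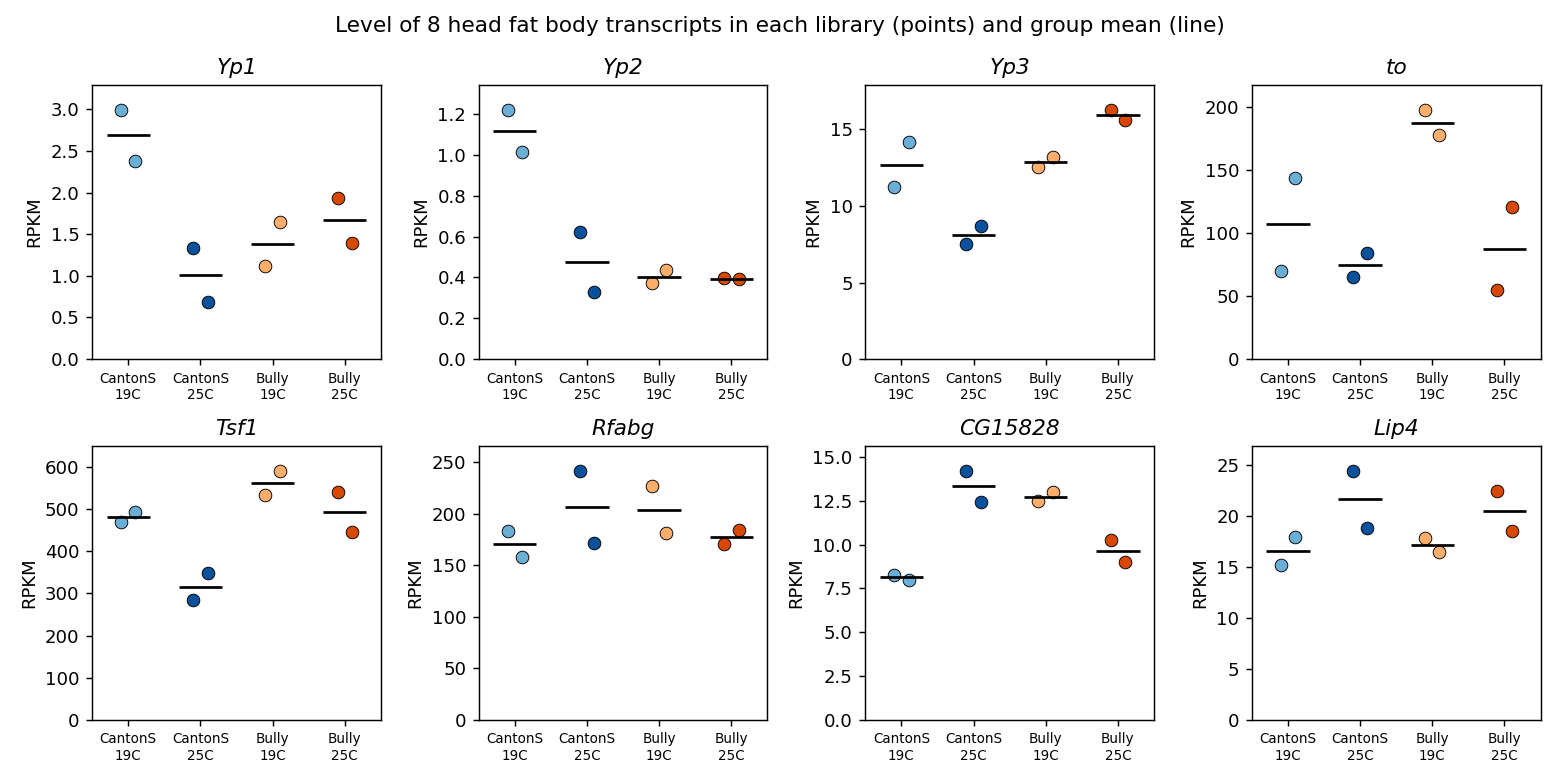
RPKM of each of the 8 genes (vertical axes, each starting at 0) in the 2 libraries of each group (points), with the group mean (line). Yp1 and Yp2 were highest in both CantonS 19C libraries, Yp3 was lowest in both CantonS 25C libraries, and the libraries of a group lay far apart for to in CantonS 19C and Bully 25C.

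Yp1 was at 2.995 and 2.39 RPKM in CantonS 19C, 1.34 and 0.686 RPKM in CantonS 25C, 1.12 and 1.64 RPKM in Bully 19C, and 1.94 and 1.40 RPKM in Bully 25C. Both CantonS 19C libraries were above all 6 others, while the libraries of the other 3 groups overlapped in the order Bully 25C, Bully 19C, CantonS 25C. These values rested on 97 to 506 reads. The lowest, in CantonS 25C b, had a 95% Poisson interval of 0.556 to 0.837 RPKM, which covers counting error only.

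Yp2 was at 1.22 and 1.01 RPKM in CantonS 19C, 0.623 and 0.329 RPKM in CantonS 25C, 0.370 and 0.435 RPKM in Bully 19C, and 0.396 and 0.390 RPKM in Bully 25C. As for Yp1, the 2 CantonS 19C libraries were the highest and the other 3 groups overlapped. The values would rest on 92 to 408 reads at 3106 bases, the smallest length that turned them all into whole reads. It is 2.00 times that of the transcript Yp2-RA today (1553 bases) and longer than all exons of Yp2 together in the current annotation (1618 bases). At 1553 bases every library but CantonS 19C b, where the count is odd (371), would give whole reads too. Which length was used is not known, so the reads may be fewer. Whether Yp2 stands too low beside other genes is not known either. The same holds for to (2076 bases against 1038 in to-RA and 1253 in all its exons), where the count is odd only in Bully 19C a (47031). Differences between libraries do not depend on that length. The ratio of Yp1 to Yp2 was between 2.09 and 2.45 in the 4 CantonS libraries and between 3.03 and 4.90 in the 4 Bully libraries.

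Yp3 was the most abundant yolk protein transcript in every library, with 3.75 to 12.6 times the RPKM of Yp1. It was at 11.2 and 14.1 RPKM in CantonS 19C, 7.49 and 8.67 RPKM in CantonS 25C, 12.6 and 13.2 RPKM in Bully 19C, and 16.3 and 15.6 RPKM in Bully 25C. Bully 25C lay above all other libraries and CantonS 25C below them, and the 19C groups overlapped.

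The level of to was 70.0 and 144 RPKM in CantonS 19C, 64.9 and 84.2 RPKM in CantonS 25C, 197 and 177 RPKM in Bully 19C, and 54.8 and 120 RPKM in Bully 25C. Bully 19C was above every other library, and the other 3 groups overlapped. The SD within groups, pooled over the 4 groups, was 0.56 on the log2 scale. That is larger than in 98.7% of the genes tested (median 0.15). The lowest read count was 6404 at a length of 2076 bases, and it would be smaller at 1038 bases.

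Tsf1 was at 469 and 493 RPKM in CantonS 19C, 284 and 347 RPKM in CantonS 25C, 533 and 592 RPKM in Bully 19C, and 540 and 445 RPKM in Bully 25C. CantonS 25C lay below all other libraries. In the order Bully 19C, Bully 25C, CantonS 19C, neighbouring groups overlapped.

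Rfabg was at 183 and 158 RPKM in CantonS 19C, 242 and 171 RPKM in CantonS 25C, 227 and 181 RPKM in Bully 19C, and 171 and 184 RPKM in Bully 25C. Every group overlapped its neighbour in the order of means. Tsf1 was at 1.17 to 3.26 times the RPKM of Rfabg, lowest in CantonS 25C a.

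CG15828, the other apolipoprotein gene, was at 8.26 and 7.98 RPKM in CantonS 19C, 14.2 and 12.4 RPKM in CantonS 25C, 12.5 and 13.0 RPKM in Bully 19C, and 10.3 and 9.02 RPKM in Bully 25C. CantonS 25C and Bully 19C overlapped at the top, Bully 25C lay below both, and CantonS 19C was the lowest. Replicates were close, with a pooled SD of 0.10 on the log2 scale. The gene is long (13330 bases), and its values rested on 9013 to 19072 reads.

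Lip4 was at 15.2 and 18.0 RPKM in CantonS 19C, 24.5 and 18.9 RPKM in CantonS 25C, 17.8 and 16.5 RPKM in Bully 19C, and 22.5 and 18.5 RPKM in Bully 25C. All 25C libraries were above all 19C libraries. The lines overlapped at either temperature.

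Differences between groups were tested with limma on log2(RPKM + 0.5), in one fit to all 8 libraries and the 8480 genes that averaged 1 RPKM or more, with Benjamini-Hochberg adjustment within each comparison. The pseudocount shrinks the differences of genes with low values. Yp2 was under that mean and was tested in the same fit without the filter (14439 genes), so 7 of the 8 genes are counted below. If its RPKM used 3106 bases, which is more than all its exons today (1618 bases), its mean at the length of Yp2-RA would be 1.19 RPKM. It would then be counted. If 1553 bases were used, its mean stays at 0.597 RPKM. Its place outside the counts thus depends on which length was used. A gene is called, and words such as rose, fell, higher and lower are used of it, where its adjusted p was below 0.05. In bulk heads, a smaller share of fat body cells and less RNA per cell cannot be told apart. The series calls the 2 libraries of a group independent biological replicates. A p-value rests on the spread within all 4 groups, drawn toward that of other genes of like level, and covers these 8 libraries alone.

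The line comparison at 25C asked whether these transcripts set Bully apart from CantonS after warm rearing. Yp3 was higher in Bully, at 15.9 ± 0.490 RPKM (SD, n = 2) against 8.08 ± 0.835 RPKM. The log2 difference was 0.94 (SE 0.15, limma adjusted p = 0.0121). It was the 1 call among the 7 genes, where 3.03% of all genes tested were called (1.86% higher and 1.17% lower in Bully). Yp1 (0.54, SE 0.24, adjusted p = 0.300) and Tsf1 (0.64, SE 0.18, adjusted p = 0.112) did not pass, although their Bully libraries lay above those of CantonS. CG15828 had the opposite sign (-0.45, SE 0.13, adjusted p = 0.120), with both Bully libraries below. Libraries did not overlap for 4 of the 7 genes, against 51.7% of all genes. The interval of the difference was -0.79 to 1.06 for to, -0.67 to 0.27 for Rfabg, -0.46 to 0.32 for Lip4 and, in the fit without the filter (1.71% of genes called), -0.48 to 0.26 for Yp2. The call of Yp3 did not survive leaving out Bully 25C a (adjusted p = 0.101), leaving out Bully 25C b (0.0784) or leaving out CantonS 25C a (0.101), with the difference between 0.84 and 1.04 in each fit with a library left out.

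After cool rearing, at 19C, the same question was asked. CG15828 was higher in Bully, with 12.7 ± 0.379 RPKM where CantonS had 8.12 ± 0.201 RPKM. Its log2 difference was 0.62 (SE 0.13, limma adjusted p = 0.0206). It was again the 1 call among 7 genes, with 11.5% of all genes called (3.44% higher and 8.07% lower in Bully). Libraries did not overlap for 4 of the 7 genes, against 60% of all genes. Once the dependence of each library on gene length was taken out, the difference of CG15828 was 0.26 (adjusted p = 0.382). The call also ended on leaving out Bully 19C a (0.125), on leaving out Bully 19C b (0.171) and on leaving out CantonS 19C b (0.0534). Yp2 was lower in Bully in the fit without the filter, at 0.403 ± 0.046 RPKM against 1.12 ± 0.146 RPKM (-0.84, SE 0.15, adjusted p = 0.0302), where 6.91% of genes were called. That call was lost without any one of the libraries of Bully 19C, Bully 25C or CantonS 19C (adjusted p 0.0710 to 0.162) and in a fit of only these 2 groups (0.0719). Yp1 had the same sign and did not pass (-0.77, SE 0.24, adjusted p = 0.0723), and Yp3 was at 0.03 (SE 0.15, adjusted p = 0.916). For to, Bully averaged 187 ± 14.2 RPKM and CantonS 107 ± 52.1 RPKM, a log2 difference of 0.90 with an interval of -0.03 to 1.82 (adjusted p = 0.172). Tsf1 (0.22, adjusted p = 0.428), Rfabg (0.25, adjusted p = 0.432) and Lip4 (0.05, adjusted p = 0.873) did not pass.

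**Figure D2:**
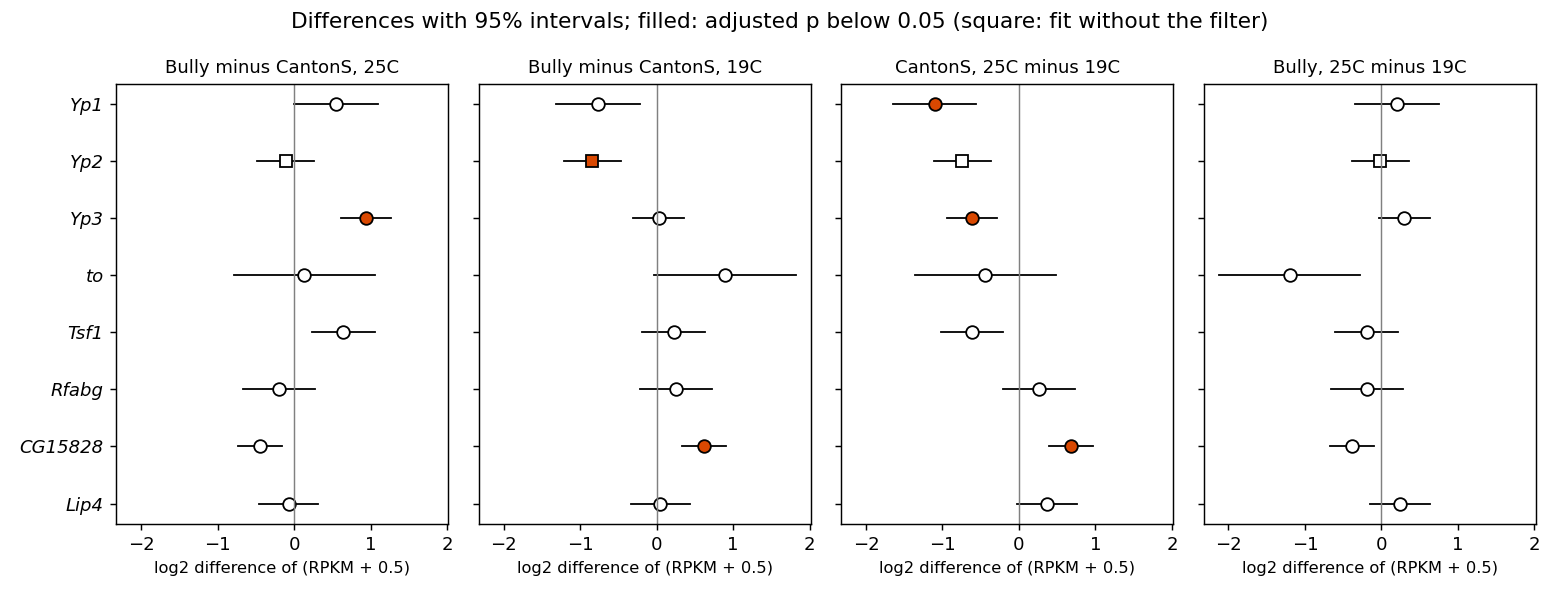
Log2 difference of RPKM + 0.5 (horizontal axes) for each gene in 4 comparisons, with its 95% interval from limma, filled where the adjusted p was below 0.05. Yp2 (squares) comes from the fit without the filter. Yp3 was filled at 25C between the lines, Yp2 and CG15828 at 19C, and Yp1, Yp3 and CG15828 between the temperatures in CantonS, with none in Bully.

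The temperature comparison in CantonS asked which of these transcripts follow rearing temperature in the control line. Yp1 fell from 2.69 ± 0.431 RPKM at 19C to 1.01 ± 0.462 RPKM at 25C (log2 difference -1.10, SE 0.24, adjusted p = 0.0437). Yp3 fell from 12.7 ± 2.07 to 8.08 ± 0.835 RPKM (-0.62, SE 0.15, adjusted p = 0.0478), and CG15828 rose from 8.12 ± 0.201 to 13.3 ± 1.26 RPKM (0.68, SE 0.13, adjusted p = 0.0411). So 1 of the 7 genes rose and 2 fell, where 6.42% of all genes were called (1.06% up and 5.35% down). Libraries did not overlap for 5 of the 7 genes, against 55.5% of all genes, and 4 of the 7 had an unadjusted p below 0.05, against 31.9%. None of the 3 calls held after median-of-ratios rescaling (adjusted p = 0.0744, 0.0733 and 0.0537 for Yp1, Yp3 and CG15828), quantile normalization, length-trend removal, a fit of the CantonS groups alone or a fit without the filter, all with unchanged signs. Most fits with a library left out lost them as well: Yp1 was called in none (adjusted p up to 0.193), Yp3 (up to 0.259) and CG15828 (up to 0.224) only without CantonS 19C a or CantonS 25C b. With the length trend removed, the difference of CG15828 was 0.20 (adjusted p = 0.529).

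Among the genes without a call in CantonS, Yp2 had the sign of Yp1 (-0.74, SE 0.15, adjusted p = 0.0898, fit without the filter, where 0.0139% of genes were called). Tsf1 was at 481 ± 16.9 RPKM at 19C and 316 ± 44.8 RPKM at 25C (-0.61, SE 0.18, adjusted p = 0.0678). Its difference was -0.07 after quantile normalization (adjusted p = 0.749) and passed without the variance trend (adjusted p = 0.0499). The difference of to was -0.44 (interval -1.36 to 0.49), that of Rfabg 0.26 (-0.21 to 0.73) and that of Lip4 0.37 (-0.02 to 0.76). The median difference of all genes was -0.11 here and 0.01 after median-of-ratios rescaling.

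The temperature comparison in Bully asked the same of the aggressive line. Limma called 0 of the 7 genes, with 2 of them at an unadjusted p below 0.05 (3.21% of all genes), and it called 0.0236% of all genes. Libraries did not overlap for 4 of the 7 genes, against 41.7% of all genes. The largest difference was in to, from 187 ± 14.2 RPKM at 19C to 87.4 ± 46.2 RPKM at 25C, with both 25C libraries below both 19C libraries (-1.20, SE 0.40, unadjusted p = 0.0169, adjusted p = 1.00). CG15828 went from 12.7 ± 0.379 to 9.65 ± 0.893 RPKM (-0.39, SE 0.13, unadjusted p = 0.0154, adjusted p = 1.00). Yp3 was at 12.9 ± 0.462 RPKM at 19C and 15.9 ± 0.490 RPKM at 25C (0.30, SE 0.15, adjusted p = 1.00). The differences of Yp1 (0.21), Tsf1 (-0.19), Rfabg (-0.19), Lip4 (0.25) and, in the fit without the filter (0.339% of genes called), Yp2 (-0.02) had intervals that included 0.

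The interaction asked whether Bully and CantonS differ by unequal amounts at 19C and 25C. Limma called 0 of the 7 genes and 0% of all genes, and at an unadjusted p below 0.05 there were 3 of the 7 genes and 23.8% of all genes. These 3 were CG15828 (-1.06, SE 0.18, adjusted p = 0.0921), Yp3 (0.91, SE 0.21, adjusted p = 0.0934) and Yp1 (1.31, SE 0.34, adjusted p = 0.104), each the line difference at 25C minus that at 19C. For CG15828 both Bully libraries lay above both CantonS libraries at 19C and below them at 25C. For Yp1 the order was the reverse, with Bully below at 19C and above at 25C. The interaction of CG15828 and Yp3 passed without CantonS 19C a (adjusted p = 0.0296 and 0.0282) or without CantonS 25C b (0.0281 and 0.0490). It was 0.73 for Yp2 (adjusted p = 0.185, fit without the filter, where 0.00693% of genes were called), -0.76 for to (0.433), 0.42 for Tsf1 (0.337), -0.45 for Rfabg (0.364) and -0.12 for Lip4 (0.777).

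**Figure D3:**
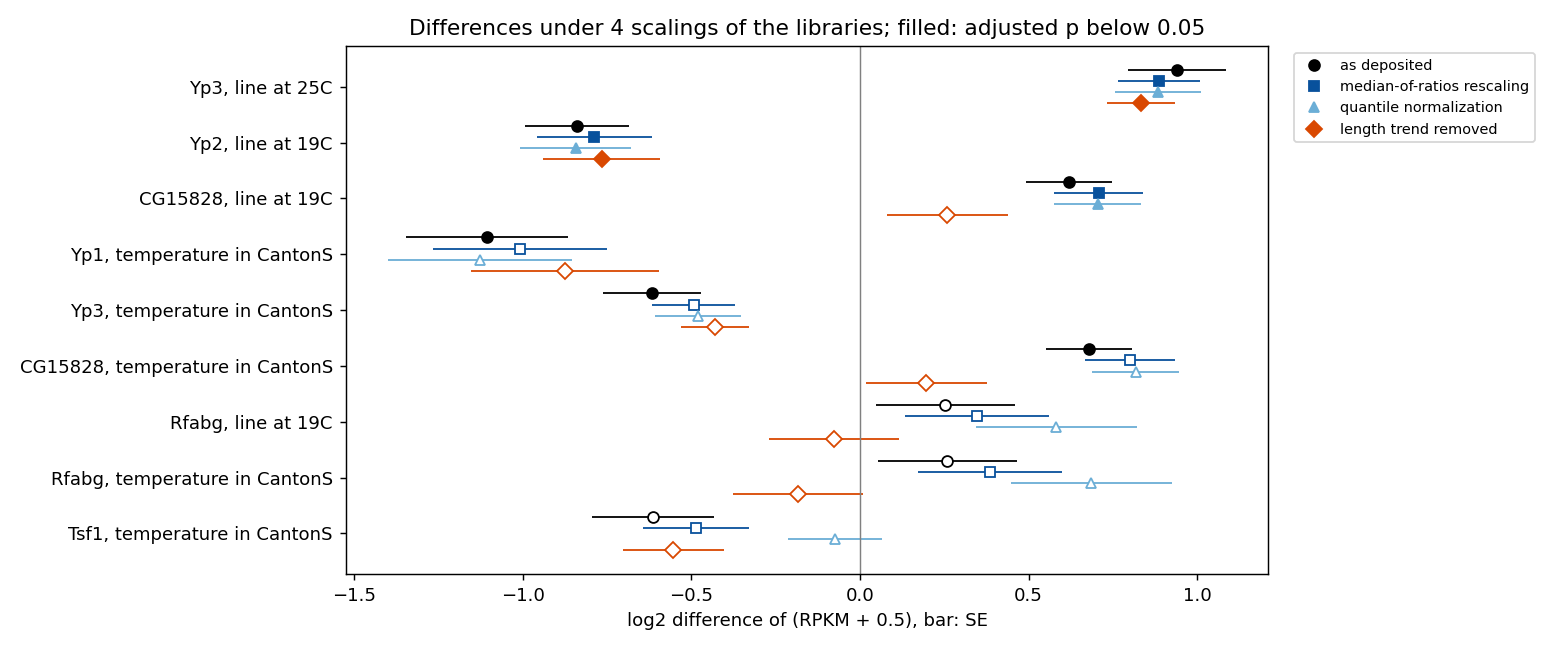
Log2 difference (horizontal axis, bars are SE) of 9 gene and comparison pairs with the RPKM as deposited, after median-of-ratios rescaling, after quantile normalization and with each library's gene length trend removed, filled where the adjusted p was below 0.05. With the length trend removed CG15828 at 19C was at 0.26 and Rfabg changed sign, while Yp3 at 25C stayed filled in all 4.

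The long genes were the most sensitive to the length trend of the libraries. Rfabg transcripts are 10287 to 11356 bases long in the current annotation. With the trend removed the line difference of Rfabg at 19C changed from 0.25 to -0.08 and its temperature difference in CantonS from 0.26 to -0.18. Neither difference passed the test on either scale.

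Of 8 genes of sex determination (fru among them) and yolk protein uptake 7 were tested. Limma called 0 between the lines at 25C or between temperatures in Bully, where 3.03% and 0.0236% of all genes were called. At an unadjusted p below 0.05 there were 0 and 2, against 16.9% and 3.21% of all genes. Sxl, the switch gene of female development, was the 1 call at 19C (higher in Bully, 0.71, adjusted p = 0.0249) and in CantonS (higher at 25C, 0.76, adjusted p = 0.0424), at 8.49 and 7.19 RPKM in CantonS 19C and 11.8 to 15.5 RPKM elsewhere. The call at 19C was lost in 4 of 17 alternatives (adjusted p up to 0.160) and that in CantonS in 11 of 17 (up to 0.224), removal of the length trend among both. Of all genes, 11.5% and 6.42% were called in these comparisons. Levels of dsx were 1.28 to 2.69 RPKM, highest in the 2 Bully 19C libraries (line difference at 19C 0.62, adjusted p = 0.0819). Of 4 male head markers (roX1, roX2, Cyp4d21 and sxe2) limma called 0 in each of the 5 comparisons, with 1 or fewer at an unadjusted p below 0.05. Among all genes 0% to 11.5% were called and 3.21% to 31.9% had such an unadjusted p. The female-enriched gene fit was at 53.2 and 50.1 RPKM in Bully 19C, 21.8 and 19.8 RPKM in Bully 25C, 11.5 and 22.1 RPKM in CantonS 19C, and 12.4 and 5.25 RPKM in CantonS 25C. It was higher in Bully at 19C (1.66, SE 0.38, adjusted p = 0.0277), a call lost in 6 of 17 alternatives, and not called at 25C (1.30, adjusted p = 0.124). The part of sex-linked markers in the yolk protein values was not tested.

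Many takeout family genes were detected in heads. Of the 22 family genes listed, 18 were tested, and CG5867 (186 to 363 RPKM) and CG5945 (153 to 272 RPKM) were above to in all 8 libraries as deposited. If the deposited values used 2076 bases, which is more than all exons of to today (1253 bases), to would be above both in 4 libraries at the length of to-RA. These are both of Bully 19C, Bully 25C b and CantonS 19C b. If they used 1038 bases, the length of to-RA, to stays below both. Among the 17 genes other than to, 1 was higher and 1 lower in Bully at 25C, and 2 were higher and 1 lower at 19C. Of all genes, 1.86% were higher and 1.17% lower at 25C, and 3.44% and 8.07% at 19C. Limma called 0 in either temperature comparison (6.42% of all genes in CantonS and 0.0236% in Bully). At an unadjusted p below 0.05 there were 4 (CantonS) and 1 (Bully), against 31.9% and 3.21% of all genes. The median of the family was -0.00 at 25C and 0.11 at 19C, against 0.05 and -0.05 for all genes. CG31207 was lower in Bully in every library, at 24.5 to 33.2 RPKM in CantonS and 6.59 to 8.23 RPKM in Bully. Its log2 differences were -1.92 at 25C (adjusted p = 7.41e-04) and -1.77 at 19C (adjusted p = 8.30e-04), and both calls held in all 17 alternatives. CG2650 was higher in Bully, at 1.57 to 2.08 RPKM against 0.449 to 0.863 RPKM (1.28, adjusted p = 0.00199 at 25C, and 0.71, adjusted p = 0.0168 at 19C). The call at 19C was lost without either Bully 19C library (adjusted p up to 0.146). CG16820 was higher at 19C (0.82, adjusted p = 0.0387), lost in 7 of 16 alternatives.

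**Figure D4:**
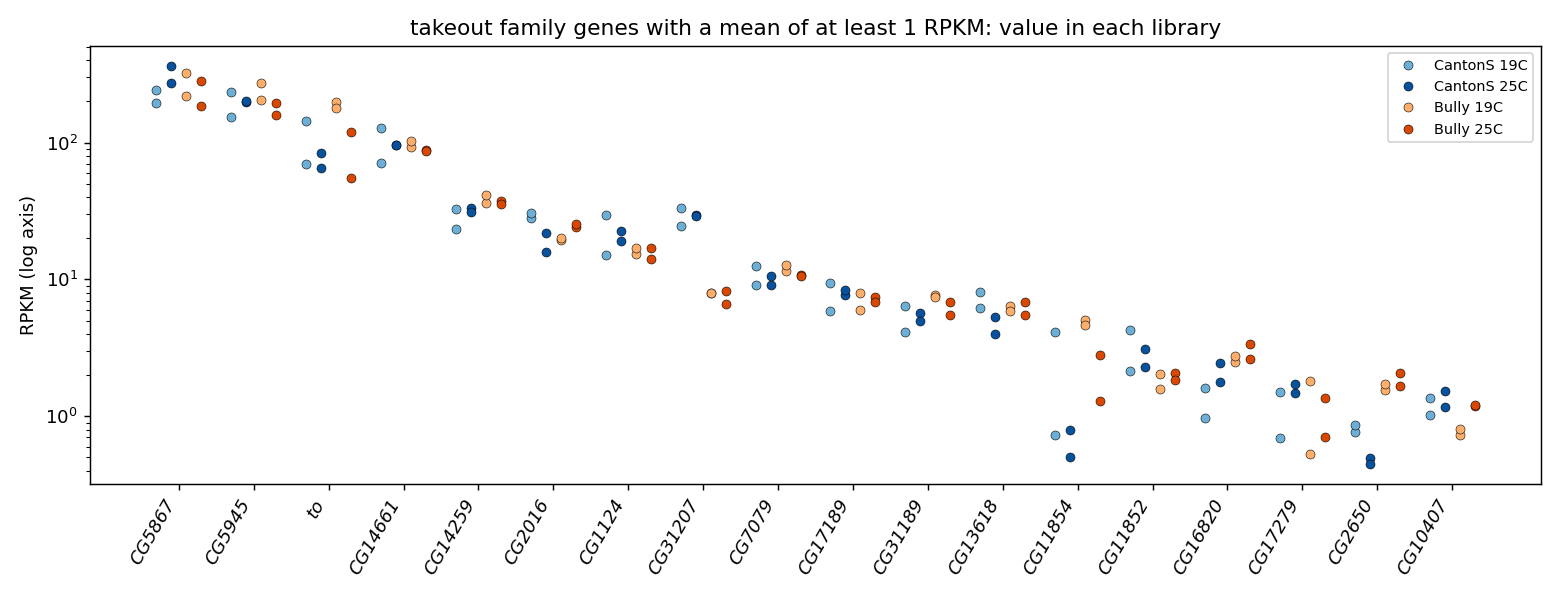
RPKM (log axis) of the 18 takeout family genes averaging 1 RPKM or more, ordered by mean, with 1 point per library coloured by group. CG31207 was at 6.59 to 8.23 RPKM in Bully and 24.5 to 33.2 RPKM in CantonS, and CG11854 spread over 0.506 to 5.05 RPKM.

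The next coding gene after to on the same strand, CG11854, belongs to the same family. It was at 5.05 and 4.66 RPKM in Bully 19C, 1.30 and 2.81 RPKM in Bully 25C, 0.724 and 4.12 RPKM in CantonS 19C, and 0.506 and 0.791 RPKM in CantonS 25C. Within each group the library with the larger value of to also had the larger value of CG11854. Whether reads of to reach CG11854 was not tested. Of 8 circadian clock genes limma called 0 in each comparison, with 2 or fewer at an unadjusted p below 0.05. The shares of all genes ranged from 0% to 11.5% called and from 3.21% to 31.9% at that unadjusted p. The clock gene tim was at 2.75 to 6.40 RPKM and per at 1.08 to 1.65 RPKM. The part of collection time in the spread of to was not tested.

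Of the iron genes other than Tsf1, limma called 0 of the 11 tested in each of the 5 comparisons, with 1 or 2 at an unadjusted p below 0.05. Over the comparisons, 0% to 11.5% of all genes were called and 3.21% to 31.9% had such an unadjusted p. The ferritin subunit genes Fer1HCH (161 to 215 RPKM) and Fer2LCH (155 to 198 RPKM), which encode the iron store of insect cells, were the highest after Tsf1. The other transferrin genes Tsf2 (5.71 to 8.71 RPKM) and Tsf3 (2.13 to 3.08 RPKM) were far below it.

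Among 8 other tested genes of lipoprotein and extracellular lipid transport, 0 were higher and 1 lower in Bully at 25C, and 1 higher and 2 lower at 19C. The shares of all genes were 1.86% and 1.17% at 25C, and 3.44% and 8.07% at 19C. Limma called 0 in the temperature comparisons (6.42% of all genes in CantonS and 0.0236% in Bully). At an unadjusted p below 0.05 there were 2 (CantonS) and 0 (Bully), against 31.9% and 3.21% of all genes. The lipocalin gene NLaz was at 9.63 to 16.0 RPKM in CantonS and 2.92 to 3.52 RPKM in Bully (-1.96, adjusted p = 0.00350 at 25C, and -1.78, adjusted p = 0.00328 at 19C), and both calls held in all 17 alternatives. The lipocalin gene Karl was higher in Bully at 19C (1.33, adjusted p = 0.0221, lost in 4 of 16 alternatives). The lipophorin receptor gene LpR1 was lower (-0.49, adjusted p = 0.0431, lost in 8 of 17). Mtp, which encodes the transfer protein needed to assemble both apolipoproteins, was at 12.2 to 18.4 RPKM and was not called in any comparison.

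Lip4 was the highest of 21 acid lipase genes, of which 17 stayed below 1 RPKM in every library. CG18302 (4.37 to 7.98 RPKM) was the other one tested, and neither was called. In the neutral lipase family 12 of 31 genes were tested. At 19C 3.44% of all genes were higher in Bully. Of the 10 other than Yp1 and Yp3, CG5162 was the 1 call, higher in Bully at 19C (0.94, adjusted p = 0.0401), lost in 7 of 17 alternatives.

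Of 8 other fat body markers tested, the hexamerin genes Lsp1beta and Lsp2 were the 2 calls between the lines, at 25C (3.03 and 1.13, adjusted p = 7.09e-06 and 0.0388) and at 19C (3.34 and 1.95, adjusted p = 3.12e-06 and 0.00216). Higher in Bully were 1.86% of all genes at 25C and 3.44% at 19C. The call of Lsp2 at 25C was lost in 9 of 17 alternatives (adjusted p up to 0.208). Lsp1beta and the insulin target tobi fell at 25C in both lines (tobi by 0.82 in CantonS, adjusted p = 0.0411, and by 1.55 in Bully, adjusted p = 0.0257), all 4 of these calls being lost in 7 to 11 of 17 alternatives. Of all genes, 5.35% were lower at 25C in CantonS and 0.0236% in Bully. At an unadjusted p below 0.05 there were 7 of the 8 markers between temperatures in CantonS and 3 in Bully, against 31.9% and 3.21% of all genes. Their median difference was -0.50 in CantonS, against -0.11 for all genes, and -0.44 in Bully, against 0.02. Of the 7 in CantonS, Lsd-1 alone had a positive difference (0.65, adjusted p = 0.0968). Among the 8 genes described here, Yp1, Yp2, Yp3, to and Tsf1 had negative differences in CantonS. Those of CG15828 (0.68), Lip4 (0.37) and Rfabg (0.26) were positive. Between the lines 3 of the 8 were at an unadjusted p below 0.05 at either temperature, against 16.9% of all genes at 25C and 31% at 19C. The part of the amount of fat body in these values was not tested. Of 8 tested hemocyte markers, genes of circulating blood cells, 4 were higher in Bully at 19C and 5 higher at 25C in CantonS. The shares of all genes were 3.44% and 1.06%. At 19C these were nimC1 (2.05, adjusted p = 0.00208, held in all 17 alternatives), Ppn (1.52), Hml (1.48) and proPO-A1 (1.82), the last 3 lost in 2 or 3 alternatives each. In CantonS they were the same 4 genes and proPO45, at 1.40 to 2.68, each lost in 8 to 11 alternatives. The summed level of all 9 hemocyte markers listed, called or not, was 51.8 and 54.7 RPKM in CantonS 19C and 73.5 to 103 RPKM in the other libraries. The highest of the 9, crq, was at 26.8 to 35.9 RPKM and was not called in these comparisons. CantonS 19C was lowest in this sum, as it was for CG15828, and highest for Yp1 and Yp2. The part of hemocytes in the values of the fat body genes was not tested. Of 8 neuron and photoreceptor genes, the rhodopsin genes Rh6 (1.13, adjusted p = 0.00822) and Rh4 (0.98, adjusted p = 0.0450) were higher in Bully at 25C, as were 1.86% of all genes. The call of Rh6 was lost without either Bully 25C library (adjusted p up to 0.0765) and that of Rh4 in 8 of 17 alternatives. The accessory gland gene Acp95EF (3.15 to 9.10 RPKM) was lower in Bully at 19C (-0.93, adjusted p = 0.0258), lost in 8 alternatives, and summed midgut markers stayed between 0.393 and 2.12 RPKM.

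By Pearson correlation of log2(RPKM + 0.5) over the 8 libraries, which share groups and depth, the tested genes most like each of the 8 were as follows. For Yp1 they were CG11241, RhoGAP68F and CG8460 (r 0.91 to 0.93). For Yp2 they were CG2816, CG6726 and CG6385 (0.97 to 0.98), and for Yp3 CG2812, CG13636 and Side (0.98). The genes most like to were CG43341, the lipase gene dob and CG11854 (0.91 to 0.92). Tsf1 was closest to CR43787, Cyp9c1 and the eye pigment gene se (0.97 to 0.98), and Rfabg to CG14614, the Mediator subunit gene MED26 and CG10777 (0.92 to 0.95). CG15828 was closest to the transcription factor gene Mef2, kek4 and gry (all 0.97), and Lip4 to CG7979, CG41343 and CG31368 (0.92 to 0.95). These are descriptions of 8 points for each gene.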

How the data were processed

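Total RNA of whole heads was sequenced in 8 samples, 2 in each of 4 groups. The authors deposited one RPKM value per gene and library. TopHat2 2.0.4 and edgeR 3.8.6 are the tools, and dm3 and BDGP5 the builds, that the submitters' processing notes name. The counting tool, the gene lengths and any rescaling of library sizes are not given in the sources used here. The columns carry group names without replicate numbers. Gene names, transcript lengths and neighbours came from the BDGP6 annotation (98.3% of symbols matched), whose coordinates were not used.

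Library sizes came from the value of 1 read in genes with a single transcript. Reads of 6 of the 8 genes were recovered within 0.001 of a whole read, at the smallest length that did so in all 8 libraries. Those of Rfabg and Lip4 were not. For Yp2 and to this length may be 2 times the one used. Limma 3.58.1 in R 4.3.3 was fitted to 4 group means (eBayes with trend, 4 residual degrees of freedom, two-sided) and was tested on simulated data. The members and lists were chosen with earlier results of these data known. Of 181 list symbols 180 were in the table. The 8 genes are named in every comparison, called list genes up to 4 a list and comparison by moderated t, and for each gene the 3 tested genes with the highest correlation; Hml between temperatures in CantonS (the fifth by t) and the uncalled list genes with values were chosen after their values were seen. The alternatives were pseudocounts of 0.1 and 1, no filter, a mean of at least 5 RPKM, 2 rescalings, a fit of only the groups compared, no variance trend and leaving out each library. Removal of the gene length trend, and the levels of Yp2 and to at the lengths of their RA transcripts, were added after seeing the data.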

Additional observations from a re-analysis of the deposited data

Results flagged for a closer look

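Line differences of opposite sign at the 2 temperatures, or temperature differences of opposite sign in the 2 lines, in which libraries did not overlap in either case, were found for 3 genes. CG15828 was higher in Bully at 19C and rose with temperature in CantonS, while its line difference at 25C (-0.45, adjusted p = 0.120) and its temperature difference in Bully (-0.39, adjusted p = 1.00) had the opposite sign and did not pass (interaction -1.06, SE 0.18, limma adjusted p = 0.0921). It was -0.55 with the gene length trend of each library removed (adjusted p = 0.318). The line difference of Yp1 was -0.77 at 19C (adjusted p = 0.0723) and 0.54 at 25C (adjusted p = 0.300), neither of which passed (interaction 1.31, SE 0.34, adjusted p = 0.104). Yp3 fell with temperature in CantonS, while its difference in Bully was 0.30 and did not pass (adjusted p = 1.00; interaction 0.91, SE 0.21, adjusted p = 0.0934). By the test of the difference itself none of the 3 passed.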

How the results depend on the processing

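No paired analysis was possible because the deposited columns carry no replicate numbers. The number of the 7 genes called between the lines at 25C was 1, and 0 to 1 when libraries were left out in turn (0 without either Bully 25C library and without CantonS 25C a). Between the lines at 19C it was 1, rose to 2 after quantile normalization (with Tsf1 at 0.71, adjusted p = 0.0203), fell to 0 with the gene length trend removed and was 0 to 2 with a library left out. Between temperatures in CantonS it was 3. It was 4 without the variance trend, where Tsf1 passed (adjusted p = 0.0499), 2 with a mean of at least 5 RPKM, which leaves Yp1 untested, and 0 without the filter, after median-of-ratios rescaling, after quantile normalization, in a fit of only these groups and with the length trend removed. It was 0 to 2 with a library left out. For the interaction it was 0, and 0 to 2 with a library left out. The cause was not tested.

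Signs turned only in differences that had not passed. After quantile normalization Yp2 between temperatures in Bully was 0.010, to between the lines at 25C was -0.015 and the interaction of Tsf1 was -0.25. With the length trend removed to between the lines at 25C was -0.018, and Rfabg was -0.077 between the lines at 19C, -0.18 between temperatures in CantonS and 0.024 for the interaction. With a library left out, the line difference at 25C ranged from -0.33 to 0.11 for Yp2, -0.43 to 0.70 for to, -0.45 to 0.050 for Rfabg and -0.26 to 0.11 for Lip4. At 19C it ranged from -0.13 to 0.19 for Yp3 and -0.066 to 0.17 for Lip4. Temperature differences ranged from -0.067 to 0.037 for Yp2 in Bully and -0.95 to 0.078 for to in CantonS, and the interaction of Lip4 from -0.31 to 0.060. Yp1 and Yp2 rested on 92 to 506 reads a library, with Yp2 counted at 3106 bases. Their 2 CantonS 25C libraries lay outside each other's 95% counting intervals at these counts.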
